A study of Mus musculus with 39 samples.

Results

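Nudcd1, Nudcd2, Nudcd3 and Nudc are the 4 genes of the mouse NudC family examined here, and Tmeff1 and Tmeff2 form a second family of 2 genes. These 6 genes, of 52636 in the deposited tables, were followed across brain libraries from mice given saline or 1 of 8 antisense oligonucleotide treatments directed at Tmem106b, which encodes a lysosomal membrane protein. Nudcd1 and Tmeff2 were chosen by their counts in 1 comparison, in which ASO 4 was lower than saline. The other members were chosen as their paralogs, so every ASO 4 value of a member is a description and carries no test. All 6 members passed the filter on low counts. Levels are given as CPM, a count scaled to the size of its library, after TMM scaling, which corrects for library composition. Changes are log2 fold changes with standard errors (SE). Adjusted p-values are from edgeR's quasi-likelihood test with Benjamini-Hochberg adjustment over all genes tested, and a gene passed at 0.05.

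The series title speaks of TMEM106B reduction in models of GRN (progranulin) haploinsufficiency, and the mouse part compares animals treated with Tmem106b oligonucleotides. The 39 libraries of polyadenylated RNA fell into saline (n = 5), ASO 1 (code RTR114030, n = 3), ASO 2 (RTR113622, n = 5), ASO 3 (RTR113656, n = 4), ASO 4 (RTR113792, n = 5) and 4 treatments given by code alone, RTR113609 (n = 4), RTR113643 (n = 5), RTR113841 (n = 3) and RTR59155 (n = 5). The labels give the tissue as brain and give no genotype, strain, age, dose, time, brain region or batch, and it is not given whether these mice carried a Grn deletion. Whether each library is a separate animal is also not given. The p-values therefore rest on the spread between libraries, which may be technical.

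NudC proteins carry a CS domain, a fold shared with co-chaperones of HSP90. Nudc takes its name from a nuclear movement gene of Aspergillus and works with LIS1 and dynein, the motor that carries cargo along microtubules. Tmeff1 and Tmeff2 encode membrane proteins of neurons with follistatin-like modules and an EGF-like module facing outwards, which have been tied to Nodal, activin and growth factor signalling. In whole tissue, fewer cells of a type and less RNA per cell cannot be told apart.

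Tmeff2 is a long gene, with a span of 287 kb on chromosome 1 (GRCm38, 50900647 to 51187270, plus strand). Tmeff1 spans 77.96 kb on chromosome 4 (48585174 to 48663131, plus strand). The 250 bases before the RefSeq start of each (GRCm38.p6) are shown because Tmeff2 is 1 of the 2 genes chosen and Tmeff1 is its paralog. Tmeff2 lies at chr1:50927273-50927522 and Tmeff1 at chr4:48584924-48585173, both on the plus strand, and the Tmeff2 stretch falls inside the longer annotated span. Capitals mark matches, on either strand, to the CCAAT box (its name is its letters), to the E-box CACGTG or to the GC box with letters GGGCGG, and no 2 matches overlap here.
Tmeff2: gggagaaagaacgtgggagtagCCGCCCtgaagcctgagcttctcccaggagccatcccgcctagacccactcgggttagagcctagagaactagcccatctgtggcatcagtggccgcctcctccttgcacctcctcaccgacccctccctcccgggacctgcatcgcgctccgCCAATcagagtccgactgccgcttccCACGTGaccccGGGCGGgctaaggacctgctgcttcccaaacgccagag
Tmeff1: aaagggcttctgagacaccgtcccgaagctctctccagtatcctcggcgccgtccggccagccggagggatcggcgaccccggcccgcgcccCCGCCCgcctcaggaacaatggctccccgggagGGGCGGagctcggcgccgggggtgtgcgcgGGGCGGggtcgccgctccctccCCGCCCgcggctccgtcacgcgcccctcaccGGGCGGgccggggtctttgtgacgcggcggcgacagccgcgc

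The Tmeff2 stretch held 1 CCAAT, 1 CACGTG and 2 GGGCGG matches. The Tmeff1 stretch held 5 GGGCGG matches and neither other motif. Of the 32851 stretches of this length in the RefSeq table, 33.9% held CCAAT, 6.02% held CACGTG and 32.7% held GGGCGG. The Tmeff1 stretch was 78% G and C with 39 CpG, and the Tmeff2 stretch was 64.8% with 16 CpG, beside medians of 52.4% and 6 CpG over the table. Of the 6 members, 5 were found in it, and Nudcd1 was not among them.

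The NudC genes lie apart from one another. Nudcd1 (ENSMUSG00000038736) spans 55.1 kb of chromosome 15 (44373163 to 44428307, minus strand). Nudcd2 and Nudcd3 lie on chromosome 11, at 40733667 to 40740046 on the plus strand and at 6105691 to 6200415 on the minus strand. Nudc lies on chromosome 4 at 133532542 to 133545996, on the minus strand.

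The annotated transcripts of the members share little sequence, which bears on whether a read of one could be counted for another. The longest exact runs shared by Nudcd1 with Tmeff2, by Nudcd1 with Nudcd2, and by Tmeff1 with Tmeff2 are given here in full.
Nudcd1 and Tmeff2: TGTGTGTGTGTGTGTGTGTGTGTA
Nudcd1 and Nudcd2: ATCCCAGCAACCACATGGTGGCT
Tmeff1 and Tmeff2: CTACCAGAATGAGTGCT
The first is a TG repeat apart from its last base, and the Tmeff paralogs share no exact run longer than 17 bases. Nudc is the exception, since a 375-base run is also present in its annotated copy Nudc-ps1, and its counts are uncertain to that extent. Nudcd1 shares exonic bases with Eny2 on the opposite strand. The library kit keeps strand, but how counting used it is not given.

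Total counts per library ran from 19676531 to 44205941. A member had between 206 and 8995 counts in a library, and Nudcd1 had 206 to 751. Per length, in the deposited RPKM, the median over 39 libraries was 45.1 for Nudcd3, 41.9 for Nudc, 24.4 for Tmeff1, 10.99 for Tmeff2, 7.64 for Nudcd2 and 2.82 for Nudcd1. Nudcd1 was therefore the least abundant member per length. Tmem106b stood at 191.9 CPM in saline and at 58.8% of that in ASO 4, the least reduced treatment, and at 27.8% in ASO 1, the most reduced. By calls, marker lists differed most in RTR113609 and ASO 3, where 6.72% and 1.91% of all genes tested passed. In RTR113609, 6 of 10 oligodendrocyte markers were lower and 5 of 10 microglial markers higher. In ASO 3, 5 of 5 red blood cell markers and 4 of 10 hypothalamic markers were higher and 3 of 10 oligodendrocyte markers lower. RTR59155 had 3 of 10 microglial markers higher, beside 0.608% of all genes. The microglial median was above 0 on the log2 scale in every treatment, from 0.11 (ASO 2) to 0.33 (ASO 3), with 0.20 in RTR113609 and 0.255 in RTR59155. Striatal markers had medians of -0.43 in ASO 1 and -0.42 in ASO 3 on the log2 scale. By edgeR 0 and 1 of 10 passed, by DESeq2 0 and 2, and by limma voom 0 and 6. At an unadjusted p under 0.05 there were 10 of 10 in each, beside 13% and 15.2% of all genes. The striatal median was also below 0 in ASO 4 (-0.22), RTR59155 (-0.18) and RTR113841 (-0.16). It was -0.002 in RTR113643, 0.15 in ASO 2 and 0.17 in RTR113609. The neuronal list mean stayed between 9.34 and 9.46 log2 CPM over the 9 group means. Of its 12 genes, 1 was lower past the threshold in ASO 3 (Gad1, -0.195, adjusted p = 0.037) and 1 in RTR113609 (Tubb3, -0.15, adjusted p = 0.0324). At an unadjusted p under 0.05 there were 5 of 12 in ASO 3 (15.2% over all genes) and 3 of 12 in RTR113609 (18.6%). Pmch, a hypothalamic neuropeptide, was above 5 CPM in 2 ASO 1 libraries, 1 from ASO 2, 3 from ASO 3, 2 from ASO 4, 1 from RTR113643 and 2 from RTR59155, and in none of the saline, RTR113609 and RTR113841 libraries.

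Few genes differed past the threshold in ASO 4. Of 19246 genes tested, 3 passed (0.0156%), all lower: Tmem106b, Nudcd1 and Tmeff2. The last pair are the genes the choice of members rests on, so their calls are built into that choice and support nothing.

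Nudcd1 encodes a NudC-domain protein first described in human leukaemia as a tumour antigen. Its level was 18.3, 16.6, 15.6, 15.6 and 15.7 CPM in the saline libraries. It was 9.88, 8.45, 9.21, 10.6 and 11.5 CPM in the ASO 4 libraries. Every ASO 4 library lay below every saline library, and the change was -0.72 on the log2 scale (SE 0.09). Nudcd1 and Tmeff2 were chosen from this comparison, so their separation from saline in ASO 4 is built in and supports nothing. Over all genes tested, 0.733% had every ASO 4 library below every saline library. The same share was 3.7% in ASO 1, 1.48% in ASO 2, 3.66% in ASO 3, 5.26% in RTR113609, 1.8% in RTR113643, 2.72% in RTR113841 and 1.24% in RTR59155.

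Tmeff2 encodes tomoregulin-2, a transmembrane protein found in humans mostly in brain and prostate. Its level was 74.3, 75.5, 70.4, 78.2 and 74.4 CPM in saline. In ASO 4 it was 54.8, 60.8, 56.4, 56.7 and 59.7 CPM. The groups did not overlap here either, and the log2 change was -0.37 (SE 0.04), smaller than that of Nudcd1.

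**Figure D1:**
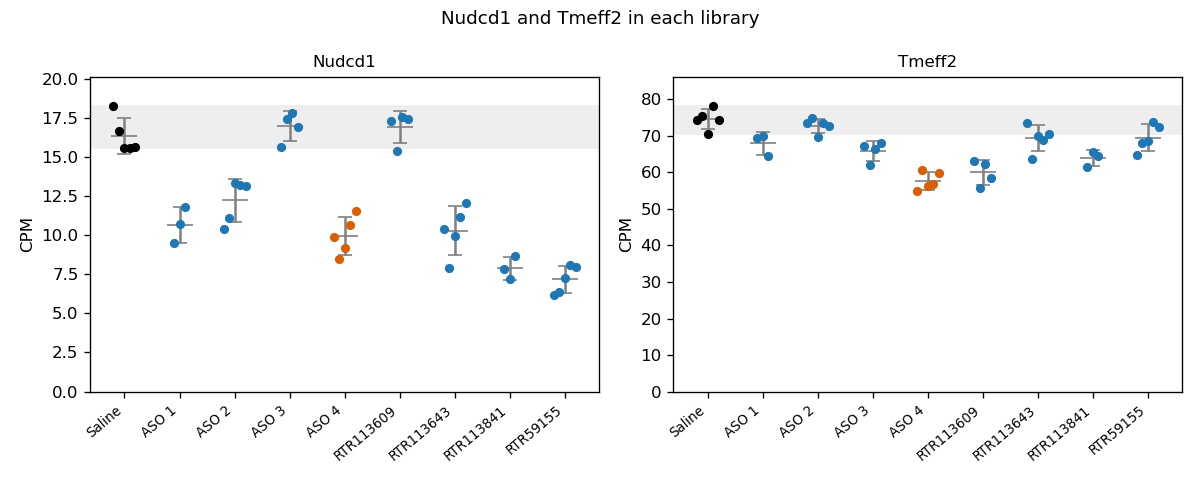
Nudcd1 (left) and Tmeff2 (right) in each of the 39 libraries, in CPM, by group. Points are libraries (black saline, orange ASO 4, blue other treatments), the lines are the mean and SD, and the grey band is the range of the 5 saline libraries: Nudcd1 lies inside or close to it in ASO 3 and RTR113609 and below it in the other treatments, while Tmeff2 is lowest in ASO 4 and RTR113609.

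The paralogs had no such difference in ASO 4. The log2 change of Tmeff1 was -0.09 (SE 0.04), with 61.4 to 72.9 CPM in ASO 4 against 68.3 to 74.1 in saline. Nudcd2 had 13.1 to 14.6 CPM in ASO 4 and 12.3 to 14.3 in saline. Nudcd3 had 202 to 217 and 201 to 219 CPM, and Nudc 57.6 to 64.7 and 58.2 to 67.5 CPM. All 4 paralogs overlapped saline.

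The other treatments were each compared with the same 5 saline libraries, which the choice of members also used. Nudcd1 fell in 4 of the 7 treatments and Tmeff2 in 3 of 7. Both passed in RTR113841, where the Tmeff2 call held in 1 of 8 fits with a library removed. In ASO 1 every library was also below every saline library for both genes, but Tmeff2 did not pass. No member rose past the threshold against saline in any of the 7 treatments. Of the 6 members, 1 passed in ASO 1, where 0.229% of all genes tested did, and none in ASO 2 (0.0727% of all genes). RTR113841 had 2 members past the threshold (0.0935% of all genes). The others had 1 each: ASO 3 (1.91%), RTR113609 (6.72%), RTR113643 (0.483%) and RTR59155 (0.608%). In ASO 2, where none passed by edgeR, 1 of 6 members had an unadjusted p under 0.05, beside 12.7% of all genes. By limma voom 1 member passed there, beside 269 of 19246 genes. By DESeq2, Nudcd1 and Nudcd2 had no adjusted p there and 0 of the other 4 members passed.

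Nudcd1 was lowest in RTR59155, with 6.21, 6.39, 7.27, 8.10 and 7.97 CPM. RTR113841 had 7.81, 7.20 and 8.67 CPM. Every library of both was below every saline library. RTR59155 was also below every ASO 4 library, while the highest RTR113841 library exceeded the lowest of ASO 4. The log2 changes against saline were -1.19 in RTR59155 (SE 0.10, adjusted p = 1.74e-11) and -1.05 in RTR113841 (SE 0.11, adjusted p = 9.69e-08). RTR59155 also had the higher microglial markers given above, and their part in the result was not tested.

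Nudcd1 also fell in RTR113643 and ASO 1. The RTR113643 libraries had 10.4, 7.92, 9.94, 11.2 and 12.1 CPM, and the log2 change was -0.67 (SE 0.09, adjusted p = 2.21e-05). The ASO 1 libraries had 9.49, 10.7 and 11.8 CPM, with a log2 change of -0.62 (SE 0.11, adjusted p = 0.00142). Neither group overlapped saline. ASO 1 also had the lower striatal median given above. The Nudcd1 call held with striatal and hypothalamic list means as covariates. These means differed between ASO 1 and saline, so that fit cannot separate their part from that of the treatment. The part of other markers was not tested. The ASO 1 call was lost without its replicate 1 (-0.54, adjusted p = 0.0644). It was also lost without the high-Pmch libraries (-0.47, adjusted p = 1.0), which leaves 1 ASO 1 library that is assumed to vary like the other groups. Over its alternatives the adjusted p ran from 6.38e-06 to 1.0.

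ASO 2 was close to the threshold for Nudcd1. Its libraries had 10.4, 11.1, 13.3, 13.2 and 13.1 CPM, all below the lowest saline library. The log2 change was -0.42 (SE 0.09, adjusted p = 0.0538). The adjusted p ran from 0.0057 to 0.15 over the alternatives, 4 of which, other than leaving out 1 library, passed.

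In ASO 3 and RTR113609 the Nudcd1 level stayed near saline. ASO 3 had 15.7, 17.5, 17.8 and 16.9 CPM, with a log2 difference of 0.05 (SE 0.09, adjusted p = 0.848). RTR113609 had 17.3, 15.4, 17.6 and 17.4 CPM, with a log2 difference of 0.05 (SE 0.09, adjusted p = 0.848). Of these 8 libraries, 1 was below the lowest saline library and none above the highest.

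From highest to lowest, the group means of Nudcd1 ran from ASO 3 (17.0 CPM) through RTR113609 (16.9), saline (16.4), ASO 2 (12.2), ASO 1 (10.7), RTR113643 (10.3), ASO 4 (9.94) and RTR113841 (7.89) to RTR59155 (7.19). The highest mean was 2.36 times the lowest. Neighbours in this order had overlapping ranges except at the step from saline to ASO 2.

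Tmeff2 followed another order. In RTR113609, where Nudcd1 was near saline, Tmeff2 was at 63.2, 55.8, 62.4 and 58.5 CPM, all below the lowest saline library and partly overlapping ASO 4. The log2 change was -0.31 (SE 0.04, adjusted p = 2.26e-06). RTR113609 is also the treatment with the most genes past the threshold and with the lower oligodendrocyte and higher microglial markers given above, and their part in the result was not tested.

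ASO 3 had Tmeff2 at 67.1, 62.0, 66.4 and 68.1 CPM, without overlap with saline, and a log2 change of -0.18 (SE 0.04, adjusted p = 0.0235). RTR113841 had 61.3, 65.6 and 64.6 CPM, also without overlap, and a log2 change of -0.23 (SE 0.05, adjusted p = 0.0425). Both calls depended on single libraries. With 1 library removed at a time, RTR113841 passed in 1 of 8 fits and missed the threshold in 7, with adjusted p from 0.0286 to 0.47. The ASO 3 call was lost without its replicate 1 or 2 or saline replicate 1 or 4 (0.0202 to 0.123 over 9 fits). ASO 3 also had the higher red blood cell and hypothalamic and the lower striatal markers given above. As in RTR113609, oligodendrocyte markers were lower, with Cldn11 (-0.49), Mal (-0.59) and Opalin (-0.51) past the threshold on the log2 scale, and Gfap of astrocytes (0.61) and C1qb of microglia (0.57) were higher. The part of the neuronal, oligodendrocyte, astrocyte, microglial and red blood cell markers in the result was not tested. Striatal and hypothalamic list means differed between ASO 3 and saline, so a fit with them cannot separate their part from that of the treatment. With these list means as covariates the log2 change of Tmeff2 was -0.24 (adjusted p = 0.00272). Without the high-Pmch libraries, which are 3 of the 4 in ASO 3, it was -0.17 and the call was lost.

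In the remaining treatments Tmeff2 did not pass. ASO 1 had 69.4, 70.0 and 64.4 CPM, all below the lowest saline library, with a log2 difference of -0.13 (SE 0.05, adjusted p = 0.216). RTR113643 had 73.6, 63.8, 69.9, 68.9 and 70.4 CPM (-0.11, SE 0.04, adjusted p = 0.26). RTR59155 had 64.7, 68.1, 68.5, 73.8 and 72.5 CPM (-0.10, SE 0.04, adjusted p = 0.434). Both overlapped saline, and ASO 2 was closest to it, with 73.4, 74.9, 69.7, 73.4 and 72.6 CPM and a log2 difference of -0.04 (SE 0.04, adjusted p = 0.773).

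**Figure D2:**
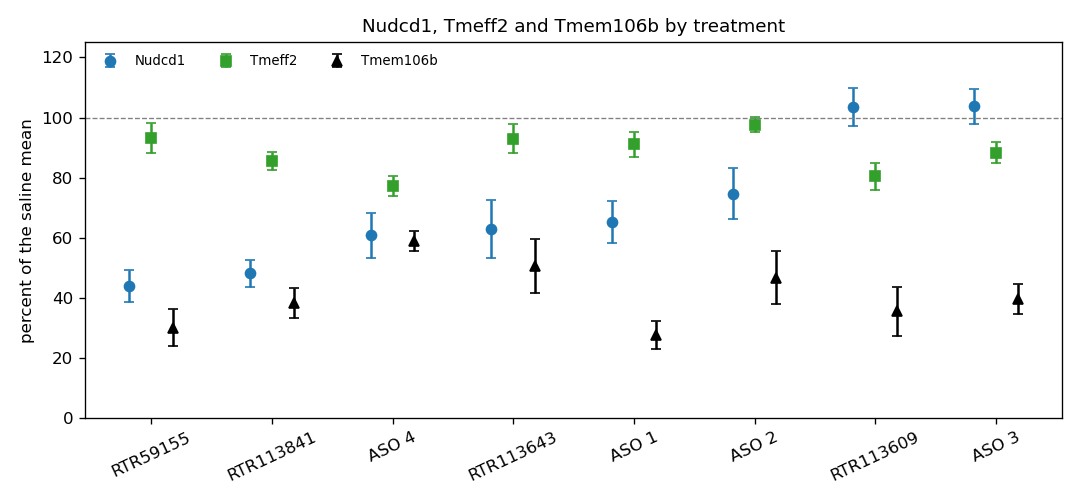
Nudcd1, Tmeff2 and Tmem106b as percent of the saline mean (y axis) in the 8 treatments (x axis, ordered by Nudcd1), mean with SD of 3 to 5 libraries. The dashed line is saline; ASO 3 and RTR113609 have Nudcd1 at 103.8% and 103.5% with Tmem106b at 39.7% and 35.5%, and ASO 4 has the highest Tmem106b (58.8%) with the lowest Tmeff2.

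The levels of both genes are set beside that of Tmem106b here. The Tmem106b level was similar in RTR113841 (38.5% of saline) and ASO 3 (39.7%), where Nudcd1 was at 48.3% and 103.8%. RTR113609 had Tmem106b at 35.5% and Nudcd1 at 103.5%. RTR59155 and ASO 1, with the lowest Tmem106b levels (30.2% and 27.8%), had Nudcd1 at 44.0% and 65.3% and did not pass for Tmeff2. These are values side by side, and the relation across treatments was not tested.

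A comparison that leaves out saline and ASO 4 uses no library of the comparison by which Nudcd1 and Tmeff2 were chosen. Earlier results of these data were known at that choice, so the comparison is not fully independent of it. Over the 29 libraries of the other 7 treatments, an F test asked whether a gene differed among them. Of the 6 members, 3 passed, beside 18.8% of the 19109 genes tested. Nudcd1 had a spread of 1.24 log2 units between its highest and lowest group (adjusted p = 1.11e-10), Tmeff2 0.28 (adjusted p = 0.00147) and Tmeff1 0.25 (adjusted p = 0.00578). The Tmeff1 call was lost without the high-Pmch libraries (0.21, adjusted p = 0.192) and with striatal and hypothalamic covariates (0.18, adjusted p = 0.11), with 0.000331 to 0.192 over the 6 alternatives other than leaving out 1 library. Nudcd3 (0.11, adjusted p = 0.166), Nudc (0.12, adjusted p = 0.453) and Nudcd2 (0.13, adjusted p = 0.691) did not pass.

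Each treatment was then set against the mean of the other 6. Nudcd1 was higher in ASO 3 (0.70, SE 0.07, adjusted p = 1.47e-07; 4.52% of all genes tested passed) and in RTR113609 (0.70, SE 0.08, adjusted p = 4.49e-08; 11.2%). It was lower in RTR59155 (-0.75, SE 0.08, adjusted p = 1.07e-06; 0.209%) and in RTR113841 (-0.59, SE 0.10, adjusted p = 0.0016; 0.366%). The RTR113841 call was lost without its replicate 1 (-0.58) or its replicate 2 (-0.52), with adjusted p from 0.000548 to 0.0962 over 29 fits. Tmeff2 was lower in RTR113609 (-0.18, SE 0.04, adjusted p = 0.0013) and higher in ASO 2 (0.14, SE 0.03, adjusted p = 0.011; 6.66%). Tmeff1 was also higher in ASO 2 (0.15, SE 0.03, adjusted p = 0.00711), a call lost without ASO 2 replicate 3 (0.13, adjusted p = 0.0742, with 0.00164 to 0.0742 over 29 fits). Without the high-Pmch libraries neither gene passed in ASO 2 (adjusted p = 0.069 for Tmeff2 and 0.11 for Tmeff1), and with striatal and hypothalamic covariates Tmeff1 did not (adjusted p = 0.188). Over the 6 alternatives other than leaving out 1 library the adjusted p ran from 0.00236 to 0.069 for Tmeff2 and from 0.000976 to 0.188 for Tmeff1.

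**Figure D3:**
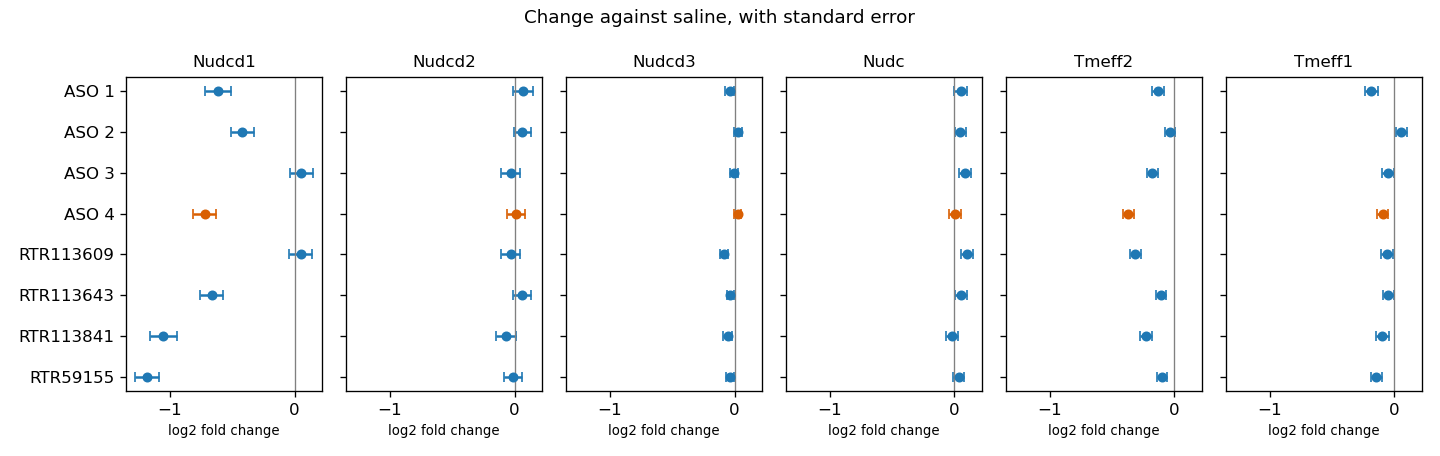
Log2 fold change against saline (x axis) of the 6 members in the 8 treatments (y axis), with SE bars; ASO 4, which chose the members, is orange. Nudcd1 ranges from -1.19 to 0.05, Tmeff2 from -0.37 to -0.04, and the 3 other NudC genes stay within 0.10 of 0.

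Nudcd2 stabilises LIS1 with HSP90, and Nudcd3 stabilises the dynein intermediate chain. None of Nudcd2, Nudcd3 and Nudc passed in any of the 7 treatments against saline by edgeR, over 21 tests. At an unadjusted p under 0.05 there were 2 (9.52%, beside 12.6% over all genes). Both were in RTR113609, where 18.6% of all genes had such a p. None passed by limma voom or in the 20 tests with an adjusted p by DESeq2. The log2 differences lay between -0.07 and 0.07 for Nudcd2, between -0.09 and 0.03 for Nudcd3 and between -0.02 and 0.10 for Nudc. The differences past 0.08 in size were those of Nudcd3 in RTR113609 (-0.09, adjusted p = 0.11) and of Nudc in RTR113609 (0.10, adjusted p = 0.242) and ASO 3 (0.09, adjusted p = 0.384). Group means differed by 1.097 times at most for Nudcd2 (13.1 to 14.3 CPM), 1.08 times for Nudcd3 (194 to 210 CPM) and 1.09 times for Nudc (60.6 to 65.8 CPM).

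Tmeff1 encodes tomoregulin-1, which inhibits Nodal signalling in Xenopus. Its level was 72.8, 73.0, 68.3, 74.1 and 72.0 CPM in saline. The lowest group was ASO 1, with 60.6, 62.4 and 67.3 CPM, all below saline, and a log2 difference of -0.18 (SE 0.05, adjusted p = 0.127). The highest was ASO 2, with 73.8, 73.0, 80.3, 73.5 and 73.8 CPM, which overlapped saline (0.06, adjusted p = 0.628). Tmeff1 passed in none of the 7 treatments against saline by edgeR. At an unadjusted p under 0.05 there were 2 of 7 (28.6%, beside 12.6% over all genes). DESeq2 gave 0 calls and limma voom 1 (RTR59155).

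**Figure D4:**
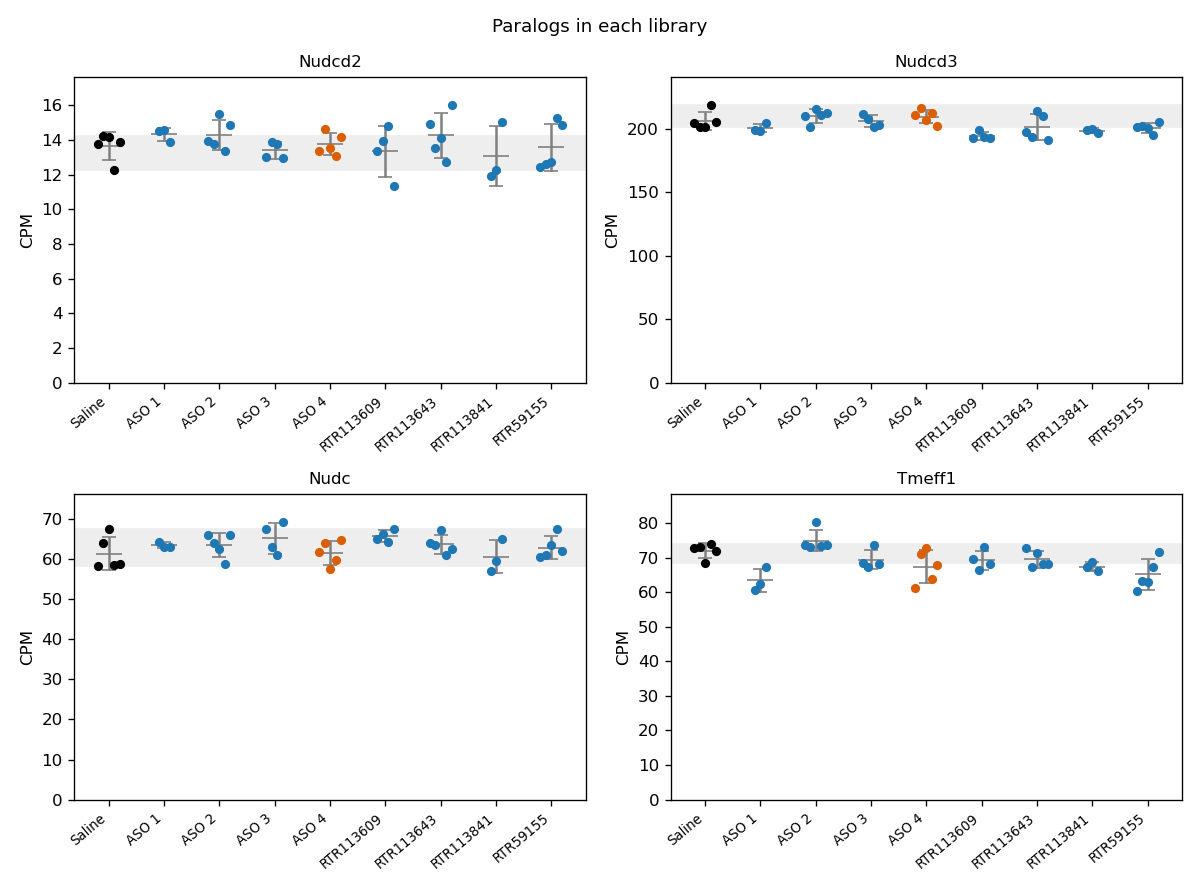
Nudcd2, Nudcd3, Nudc and Tmeff1 in each library, in CPM, by group, with the mean and SD; colours and the grey saline band are as for Nudcd1 and Tmeff2. Most points lie in or near the band; ASO 1 is below it for Tmeff1, and RTR113609 and RTR113841 are below it for Nudcd3.

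The sum of the NudC family per length moved less than Nudcd1 itself. Nudcd1 made up 4.22% ± 0.35 (SD, n = 5) of the summed RPKM of the 4 NudC genes in saline, 2.58% ± 0.32 (SD, n = 5) in ASO 4 and 1.90% ± 0.19 (SD, n = 5) in RTR59155. The summed RPKM was 98.1 ± 2.4 (SD, n = 5) in saline and between 93.9 (RTR113841) and 101.7 (ASO 3) in the treatments. Tmeff2 made up 32.0% ± 0.28 (SD, n = 5) of the summed RPKM of the Tmeff pair in saline, 28.0% ± 1.2 (SD, n = 5) in ASO 4 and 28.2% ± 0.67 (SD, n = 4) in RTR113609.

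The members were compared with one another across the 39 libraries. The Pearson r of log2 CPM was 0.09 between Nudcd1 and Tmeff2, 0.41 between Tmeff1 and Tmeff2, and 0.45 between Nudcd1 and Tmeff1. With group means removed, the same values were 0.25, 0.44 and 0.27. The libraries share groups and depth, so these values are descriptions.

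Genes like Nudcd1 over the 39 libraries were sought among 13688 genes of mean CPM of at least 1. Genes without a symbol or with Gm-number or Rik names were left out. The most alike were Col19a1 (r = 0.79), a collagen gene, Atl1 (0.78), an endoplasmic reticulum GTPase, and Ttc3 (0.76), a ubiquitin ligase. Next came Abl1 (0.73), a tyrosine kinase, and Itm2b (0.73), the BRI2 membrane protein. Within groups r fell to between 0.25 and 0.47. As these genes were chosen by r over all 39 libraries, a fall where Nudcd1 is low is built into the choice and tests nothing. In RTR59155 Col19a1 (-1.45), Abl1 (-0.77), Itm2b (-0.45), Atl1 (-0.27) and Ttc3 (-0.27) all fell past the threshold on the log2 scale. Col19a1 also passed in RTR113609 (-0.41, adjusted p = 0.0335), where Nudcd1 was near saline. In ASO 4 the log2 values were -0.37 for Col19a1, -0.18 for Atl1, -0.045 for Ttc3, 0.01 for Abl1 and 0.06 for Itm2b. Those most like Tmeff2 were Bckdhb (0.67), of branched-chain amino acid breakdown, Atp5b (0.63) and Ndufa9 (0.63), of the mitochondrial respiratory chain and ATP synthase, Grip1 (0.63), a synaptic scaffold, and Il1rapl2 (0.62). In RTR113609 the log2 changes of Grip1 (-0.31) and Il1rapl2 (-0.78) passed, and those of Bckdhb (-0.15), Atp5b (-0.05) and Ndufa9 (-0.08) did not. The same limit of choice by r holds for these genes and Tmeff2.

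By edgeR, genes next to the members passed at close to the share of all genes tested. Eny2, a transcription and mRNA export factor that shares exonic bases with Nudcd1, had log2 differences between -0.05 and 0.06 in the 7 treatments (adjusted p from 0.662 to 0.942) at a mean of 52.9 CPM. Over 21 neighbours within 100 kb of a member, 2 of 147 tests passed by edgeR (1.36%, beside 1.45% over all genes). Both were in RTR113609: Ccng1 near Nudcd2 (0.24, adjusted p = 0.0209) and Ogdh near Nudcd3 (-0.21, adjusted p = 2.4e-05). At an unadjusted p under 0.05 there were 14 (9.52%, beside 12.6%). DESeq2 gave 6 among the 115 tests with an adjusted p, a higher share than its 2708 of 110835 over all genes. Limma voom gave 5 of 147, also a higher share than its 3385 of 134722. The only tested neighbour of Tmeff2, Gm28322, had a mean of 0.15 CPM and log2 values from -0.42 (RTR113609) to 1.025 (RTR113643). Pkhd1l1 near Nudcd1 had 0.30 CPM. These levels are too low to say whether either gene changed.

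Among the listed working partners of NudC proteins 2 genes passed by edgeR, both in RTR113609, the treatment with the most calls over all genes. Of 23 genes of dynein, dynactin and LIS1, 0 passed in the 6 treatments other than RTR113609 by edgeR, while 19 of 138 tests (13.8%) had an unadjusted p under 0.05, beside 11.7% over all genes tested, and DESeq2 gave 0 and limma voom 1. In RTR113609, 2 of 23 passed (8.7%), near the 6.72% of all genes: Dctn3, a dynactin subunit, rose (0.15, adjusted p = 0.00746) and Dync1i1, a neuronal dynein intermediate chain, fell (-0.17, adjusted p = 0.00803). Of 15 genes of HSP90, its co-chaperones and CS-domain proteins, 0 passed in 105 tests by edgeR over the 7 treatments. At an unadjusted p under 0.05 there were 14 (13.3%, beside 12.6% over all genes), DESeq2 gave 1 among the 97 tests with an adjusted p, and limma voom 2. Dhx15, an RNA helicase that binds NUDCD1 in human cells, and Rcc1 gave 0 calls by edgeR and limma voom in 14 tests and by DESeq2 in the 13 with an adjusted p, with 0 at an unadjusted p under 0.05. The list medians lay between -0.03 and 0.08 on the log2 scale, beside medians of all genes within 0.01 of 0.

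The list for the Tmeff proteins holds 17 genes, namely ligands, receptors and SMADs of Nodal, activin and PDGF signalling, Erbb4, 2 shedding proteases, and the reported binding partners Nectin1, an adhesion molecule, and Sardh, a mitochondrial enzyme. It gave 0 calls by edgeR in the 6 treatments other than RTR113609, with 25 of 102 tests (24.5%, beside 11.7% over all genes) at an unadjusted p under 0.05, 0 by DESeq2 among the 91 with an adjusted p, and 2 by limma voom. In RTR113609, 2 of 17 passed, beside 6.72% of all genes: Nodal, a ligand of the TGF-beta family, rose (0.88, SE 0.22, adjusted p = 0.00786) and Erbb4, a neuregulin receptor, fell (-0.69, SE 0.08, adjusted p = 1.29e-07). Of 14 other genes with follistatin-type domains, 4 fell in RTR113609, where 6.72% of all genes passed, namely Fstl5 (-0.47), Sparcl1 (-0.18), Spock1 (-0.16) and Smoc1 (-0.35). In the 6 other treatments 0 of 84 tests passed by edgeR, with 7 (8.33%) at an unadjusted p under 0.05, 1 by DESeq2 among the 81 with an adjusted p, and 2 by limma voom. The follistatin-domain median in RTR113609 was -0.09, and the other medians of both lists lay between -0.02 and 0.08.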

How the data were processed

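RNA from mouse brain was sequenced as 39 libraries made with a stranded mRNA kit, per the labels. The authors aligned reads with GSNAP to GRCm38, per the submitters' processing notes; no counting tool or strand setting is given in the sources used. The deposited tables give a raw count, an exonic width and an RPKM per gene, per the file headers. The counts came to 86.1% to 88.2% of the total the deposited RPKM values were scaled by, so CPM and RPKM levels differ by that factor.

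Groups came from the labels, which carry no replicate numbers; replicates are numbered in accession order, as names only. Genes were filtered by filterByExpr, scaled by TMM and tested in R 4.3.3 with edgeR 4.0.16 quasi-likelihood fits on the deposited counts: all 39 libraries against saline, and 29 libraries of 7 treatments without saline and ASO 4. SE is the log2 fold change over the square root of F. DESeq2 1.42.0, limma 3.58.1 voom and other alternatives are in the closing section. The scripts were tested on simulated data. Sequences came from RefSeq (GRCm38.p6) promoters and positions and transcripts from the GENCODE M21 annotation of GRCm38, matched by gene ID.

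The members and lists were chosen with earlier results of these data known. Named genes were the members, Tmem106b, neighbours within 100 kb, and list genes past the threshold, for the marker lists only in part. The 5 genes of highest Pearson r (log2 CPM, prior count 2) with Nudcd1 and with Tmeff2, of those compared, were also named. A search for words shared with Tmem106b was not done, as no genome was used here.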

Additional observations from a re-analysis of the deposited data

Results flagged for a closer look

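Of 42 sets of libraries examined, each 1 member in 1 group of 4 or 5 libraries, 5 held a library that stood apart from the others of its group, where chance flags about 1 in 20. RTR113609 replicate 2 was low for Nudcd1 (15.38 CPM) and high for Nudcd3 (198.9 CPM). Saline replicate 4 was low for Nudcd2 (12.28 CPM) and high for Nudcd3 (218.9 CPM). ASO 2 replicate 3 was high for Tmeff1 (80.34 CPM), and the call of Tmeff1 in ASO 2 against the other treatments was lost without it. Without saline replicate 4 the calls of Tmeff2 in ASO 3 and RTR113841 were lost and the Nudcd3 value in ASO 3 changed sign (0.021), and without RTR113609 replicate 2 no call of a member changed.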

How the results depend on the processing

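Each of 55 tested values was recomputed under other tools, scalings, filters and sets of libraries, 1131 recomputations in all. Apart from leaving out 1 library, 350 kept direction and side of the threshold, 10 lost a call, 5 gained one and 5 changed sign. Leaving out 1 library kept 731, lost 15, gained 3 and changed the sign of 12. Nudcd1 in RTR113643, RTR113841 and RTR59155 and Tmeff2 in RTR113609 against saline, and Nudcd1 and Tmeff2 over the 7 treatments, passed in every fit run. The 6 ASO 4 values, which have no test, were recomputed 102 times and changed sign 9 times. DESeq2 gave no adjusted p for Nudcd1 and Nudcd2 in ASO 2. The causes of the changes below were not tested.

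Without the high-Pmch libraries, calls were lost for Nudcd1 in ASO 1 (log2 value -0.469) and for Tmeff2 in ASO 3 (-0.172) and RTR113841 (-0.225). Tmeff1 and Tmeff2 in ASO 2 against the other 6 (0.135 and 0.147) and Tmeff1 over the 7 treatments (0.21) also lost their calls. In ASO 3 Nudcd2 (0.006), Nudc (-0.01) and Tmeff1 (0.027) changed sign. That fit left out 2 of 3 ASO 1 libraries and 3 of 4 ASO 3 libraries, so its values in these groups rest on little. With striatal and hypothalamic covariates Tmeff1 lost its calls in ASO 2 (0.119) and over the 7 treatments (0.182), Nudcd1 in ASO 2 passed (-0.43) and Nudcd3 in ASO 3 changed sign (0.012). With voom Nudcd1 in ASO 2 (-0.449) and Tmeff1 in RTR59155 (-0.17) passed and Nudcd3 in ASO 3 changed sign (0.005). Nudcd1 in ASO 2 also passed with no filter and with 2 groups only (-0.425 in both), where Tmeff2 in RTR113841 did not (-0.227 and -0.223).

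Leaving out 1 library gave -0.702 to -0.541 for Nudcd1 in ASO 1, -0.456 to -0.367 for Nudcd1 in ASO 2 (passed without ASO 2 replicate 4), -0.654 to -0.522 for Nudcd1 in RTR113841 against the other 6, -0.238 to -0.155 for Tmeff1 in ASO 1 (passed without its replicate 3), -0.183 to -0.12 for Tmeff1 in RTR59155 (passed without its replicate 5), 0.126 to 0.161 for Tmeff1 in ASO 2 against the other 6, -0.195 to -0.151 for Tmeff2 in ASO 3 and -0.24 to -0.195 for Tmeff2 in RTR113841. Signs changed for Nudc in RTR113841 (-0.07 to 0.024), Nudcd2 in RTR113609 (-0.076 to 0.034) and RTR59155 (-0.058 to 0.018) and Nudcd3 in ASO 3 (-0.012 to 0.021), and in ASO 4 for Nudc (-0.014 to 0.042; -0.006 without the high-Pmch libraries) and Nudcd2 (-0.025 to 0.028).

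Genes past the threshold, with the range over all alternatives, numbered 44 (10 to 142) in ASO 1, 14 (5 to 269) in ASO 2, 367 (27 to 934) in ASO 3, 3 (2 to 8) in ASO 4, 1294 (917 to 1748) in RTR113609, 93 (38 to 187) in RTR113643, 18 (9 to 33) in RTR113841, 117 (62 to 176) in RTR59155 and 3591 (817 to 4734) over the 7 treatments. Against the other 6 they numbered 1273 (34 to 2055) in ASO 2, 863 (24 to 1996) in ASO 3, 2139 (1098 to 2687) in RTR113609, 70 (3 to 162) in RTR113841 and 40 (10 to 73) in RTR59155. No paired analysis was possible because the labels carry no replicate numbers. Precision was lowest for Nudcd1, with 206 counts in its smallest library.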
